A study of Mus musculus with 4 samples.

Results

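Markers of fibroblasts, mural cells and endothelial cells, other than collagens, were examined in RNA from sorted mouse pancreatic β-cells. A list of 40 genes was matched by symbol to the deposited count table, and a gene was kept when its counts over all libraries summed to 15 or more. This left 37 of 40 listed genes, out of 23420 in the table: 18 of 20 fibroblast and matrix genes, all 7 mural genes and 12 of 13 endothelial genes. Thy1 (6 counts in all), Twist1 (5 counts) and Cdh5 (4 counts) fell below the rule. The study compared 2 libraries labelled Bmal1KO with 2 libraries labelled Bmal1+/-, here called the KO and the heterozygous label. All animals carried DTA, the gene of the diphtheria toxin A chain, and received doxycycline for 10 days to ablate β-cells, so that both groups hold the β-cells left after ablation. The promoter that drives the toxin, the cells that lack Bmal1, and the age, strain and sex of the mice are not stated in the labels.

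Fibroblasts build and remodel the connective tissue around acini, ducts and islets, and carry receptors for platelet-derived growth factor. Mural cells are the pericytes and smooth muscle cells that wrap vessels, and they hold contractile proteins. Endothelial cells line the vessels. The islet is one of the most densely vascularised endocrine tissues, and its capillaries are fenestrated. None of these cell types is the target of a β-cell sort.

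Each library held the β-cell RNA its label names: the 8 genes listed for β-cells summed to 215011 to 273949 CPM (counts scaled to library size by the TMM method). Together the 37 members took only 0.00988% to 0.0309% of a library, and total counts were 31056116 to 38020488, so many values rest on few reads. Where a library had no read of a gene, 3 reads served as its floor (0.0775 to 0.0937 CPM). Intervals and floors cover counting error only. Arntl, the gene that encodes BMAL1, was higher in the KO label (75.8 and 65.6 against 23 and 15 CPM). A count over the whole gene cannot show whether a deleted part is missing, so the label could not be checked. The libraries also stood apart in sex-linked RNA, with Xist at 8.68 CPM in KO replicate 1 against 38.8 to 72.3 CPM in the others, and Ddx3y at 89.1 CPM against 12.1 to 23.8 CPM. Nothing says that the libraries of a label came from separate animals, so the p-values reflect variation among these libraries only, and that variation may be technical. In bulk RNA, fewer cells of a type and less RNA per cell cannot be told apart.

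The only members that passed as higher in the KO label were genes of fibroblasts and their matrix, 5 of 17 tested. Of 28 members that passed the filter on low counts, 5 rose and 0 fell in edgeR (quasi-likelihood test, p-values adjusted by Benjamini-Hochberg over all 14649 genes tested), where 1.20% of genes rose and 1.34% fell. The 5 were Fn1, Lum, Sparc, Pdgfra and Twist2, all in the fibroblast and matrix group, where the other 12 tested members did not pass. The median log2 fold change (KO label minus heterozygous label) was 2.40 over the 17 tested fibroblast and matrix members, 0.008 over 4 mural and 1.46 over 7 endothelial members, against 0.024 over all genes tested. Twist2 and Pdgfra passed the filter through the KO libraries alone, so they had to differ. Of the 5, that leaves Fn1, Lum and Sparc. The cut of the filter is 10 counts in a library of median size, and heterozygous replicate 1 was the largest library. Fn1 and Lum were under the cut there (10 and 4 counts), so they too needed a KO library to pass. Only Sparc reached the cut in both heterozygous libraries. The count of 5 was 1 without heterozygous replicate 2 (Fn1), 2 without heterozygous replicate 1 (Fn1 and Fbln2), and 8 without KO replicate 2. Immune markers (summed to 1233 CPM in KO replicate 2 and 415 to 493 CPM elsewhere) and acinar markers (193 and 96.7 CPM in the KO label, 73.8 and 25.5 CPM in the heterozygous label) moved in the same libraries, and their part in the result was not tested.

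Pdgfra, the α receptor for platelet-derived growth factor and a defining gene of fibroblasts, had 37 and 170 counts in the KO label and 0 in both heterozygous libraries. It lies on chromosome 5 from 75152292 to 75198215 (GENCODE M21, GRCm38, plus strand). Its level was 1.13 CPM in KO replicate 1 and 5.31 CPM in KO replicate 2, so every KO value stood above the heterozygous ones while the KO libraries were far apart. Against the floor of 3 counts in each heterozygous library it was at least 38.2-fold higher (edgeR adjusted p = 0.0464). It passed the filter on low counts through the KO libraries alone, so it had to differ. Over its alternatives the adjusted p ran from 1.44e-05 to 0.140, and it passed in 7 of 12.

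Twist2, a transcription factor gene of mesenchymal cells (chromosome 1, 91801461 to 91848028), had the opposite order within the KO label. It was at 2.83 CPM in KO replicate 1 and 1.16 CPM in KO replicate 2, again with 0 counts in both heterozygous libraries. Like Pdgfra, it passed the filter on low counts through the KO libraries alone, so it had to differ. It was at least 23.7-fold higher (edgeR adjusted p = 0.0473; 0.000157 to 0.201 over its alternatives). Vim, the intermediate filament gene of mesenchymal and other cells, was at 4.20 and 14.6 CPM in the KO label and 2.97 and 3.60 CPM in the heterozygous label, and did not pass (log2 fold change 1.51, SE 0.59, adjusted p = 0.258). The high value was that of KO replicate 2. Pdgfrb, the β receptor found on fibroblasts and pericytes alike, was too low to test, with 32 and 2 counts in the KO label and 4 and 0 in the heterozygous label. Nearly all of its reads were in KO replicate 1, the library with the lower Pdgfra.

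**Figure D1:**
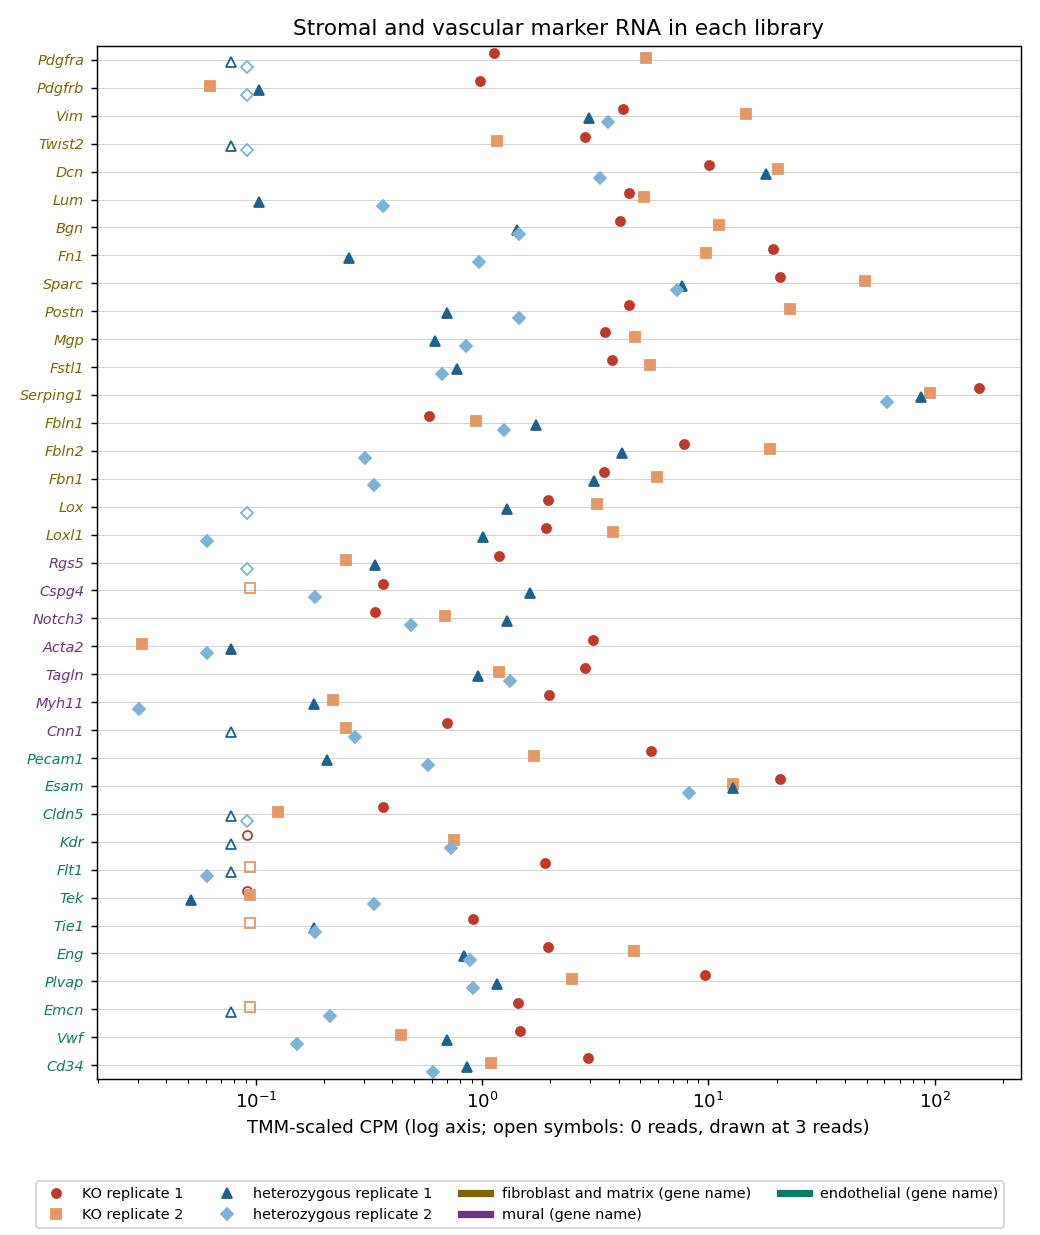
Level of each of the 37 members in each of the 4 libraries, in TMM-scaled CPM on a log axis. Symbols stand for libraries, the colour of a gene name gives its group, and open symbols mark 0 reads, drawn at 3 reads. KO replicate 2 is highest for Sparc and Postn, and KO replicate 1 for Plvap and Acta2. Other members of their groups run otherwise: Fn1 and Twist2 are highest in KO replicate 1, and Eng and Kdr in KO replicate 2. Notch3 and Cspg4 are highest in heterozygous replicate 1.

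Sparc, a matricellular protein that binds collagen (chromosome 11, 55394500 to 55423183), was the most abundant per kilobase of exon among the genes that rose. It was at 20.7 CPM in KO replicate 1, 49.4 CPM in KO replicate 2, and 7.62 and 7.23 CPM in the heterozygous libraries. The groups did not overlap, and the heterozygous libraries were nearly equal (log2 fold change 2.24, SE 0.41, edgeR adjusted p = 0.0401). The call was lost without either heterozygous library and by limma-voom, with adjusted p from 3.83e-06 to 0.160 over its alternatives.

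Fn1, which encodes fibronectin (chromosome 1, 71585520 to 71653200), was at 19.3 and 9.71 CPM in the KO label and at 0.258 and 0.969 CPM in the heterozygous label. Unlike Sparc it was higher in KO replicate 1. Its log2 fold change was 4.58 (SE 0.68, edgeR adjusted p = 0.0230), and it passed in 13 of 13 alternatives, at adjusted p up to 0.0498. Lum, the small leucine-rich proteoglycan lumican (chromosome 10, 97565128 to 97572703), was at 4.45 and 5.18 CPM against 0.103 and 0.363 CPM. It was the gene among these 5 with the closest KO libraries (log2 fold change 4.37, SE 0.76, edgeR adjusted p = 0.0358, 3.72e-06 to 0.0996 over its alternatives). Both Fn1 and Lum were under the cut of the filter on low counts in heterozygous replicate 1.

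Several other matrix genes had separated groups without passing. Postn, which encodes periostin of activated fibroblasts, was at 4.45 CPM in KO replicate 1, 22.9 CPM in KO replicate 2, and 0.697 and 1.45 CPM in the heterozygous label. KO replicate 2 alone held most of its reads (log2 fold change 3.67, SE 0.82, edgeR adjusted p = 0.0732). Bgn, which encodes biglycan, was at 4.05 and 11.2 against 1.42 and 1.45 CPM (adjusted p = 0.0908). Fstl1, a secreted glycoprotein gene, was at 3.74 and 5.53 against 0.775 and 0.666 CPM (adjusted p = 0.0626). Mgp, an inhibitor of calcification, was at 3.47 and 4.75 against 0.620 and 0.848 CPM (adjusted p = 0.0869). Each of these 4 was above both heterozygous libraries in both KO libraries, and all 4 passed by DESeq2, which called 12 members where limma-voom called 2.

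Another set of matrix genes, grouped after their values were seen, was at least 5-fold apart between the heterozygous libraries. Dcn, the proteoglycan decorin and a defining gene of fibroblasts, was at 10.1 and 20.3 CPM in the KO label and 17.9 and 3.33 CPM in the heterozygous label. Heterozygous replicate 1 thus lay between the KO libraries, and the fold change was 0.51 on the log2 scale (SE 0.71, edgeR adjusted p = 0.783). Fbln2, a fibulin of elastic fibres and basement membranes, was at 7.79 and 18.6 CPM against 4.16 and 0.303 CPM. Fbn1, the microfibril protein fibrillin, was at 3.44 and 5.93 CPM against 3.12 and 0.333 CPM. Lox and Loxl1, which encode enzymes that crosslink collagen and elastin, were at 1.95 and 3.22 CPM and at 1.92 and 3.78 CPM in the KO label.

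In heterozygous replicate 1 Lox and Loxl1 were at 1.29 and 1.01 CPM, and in heterozygous replicate 2 Lox had no read and Loxl1 was at 0.0605 CPM. Heterozygous replicate 1 exceeded replicate 2 by 5.38-fold for Dcn (95% counting interval 4.40 to 6.64), 13.7-fold for Fbln2 (7.28 to 29.2), 9.38-fold for Fbn1 (5.06 to 19.3) and 16.6-fold for Loxl1 (4.31 to 142), and by at least 14.2-fold for Lox. For Bgn, Sparc, Fstl1, Mgp and Vim the same ratio was 0.731 to 1.16. Fn1, Lum and Postn ran the other way, 3.75-fold, 3.52-fold and 2.08-fold higher in heterozygous replicate 2. None of Dcn, Fbln2, Fbn1, Lox and Loxl1 passed between labels in edgeR's test (adjusted p = 0.254 for Fbln2). Fbln2 passed by DESeq2 (adjusted p = 0.0467) and without heterozygous replicate 1 (edgeR adjusted p = 0.0194). Acinar RNA was also higher in heterozygous replicate 1 (73.8 against 25.5 CPM), and its part in this was not tested.

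Serping1 and Fbln1 stood apart from the other matrix genes. Serping1, the inhibitor of complement C1, was the most abundant member per kilobase of exon, at a mean of 54.2 CPM per kilobase in the KO label and 31.9 in the heterozygous label, against 9.26 and 1.96 for Sparc, which came next in the KO label. It was at 156 and 95.8 CPM in the KO label and 86.6 and 61.7 CPM in the heterozygous label, and did not pass (log2 fold change 0.76, SE 0.27, edgeR adjusted p = 0.209). Fbln1, another fibulin, was the only member with both KO libraries below both heterozygous ones, at 0.578 and 0.937 against 1.73 and 1.24 CPM (log2 fold change -0.97, SE 0.78, adjusted p = 0.605).

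**Figure D2:**
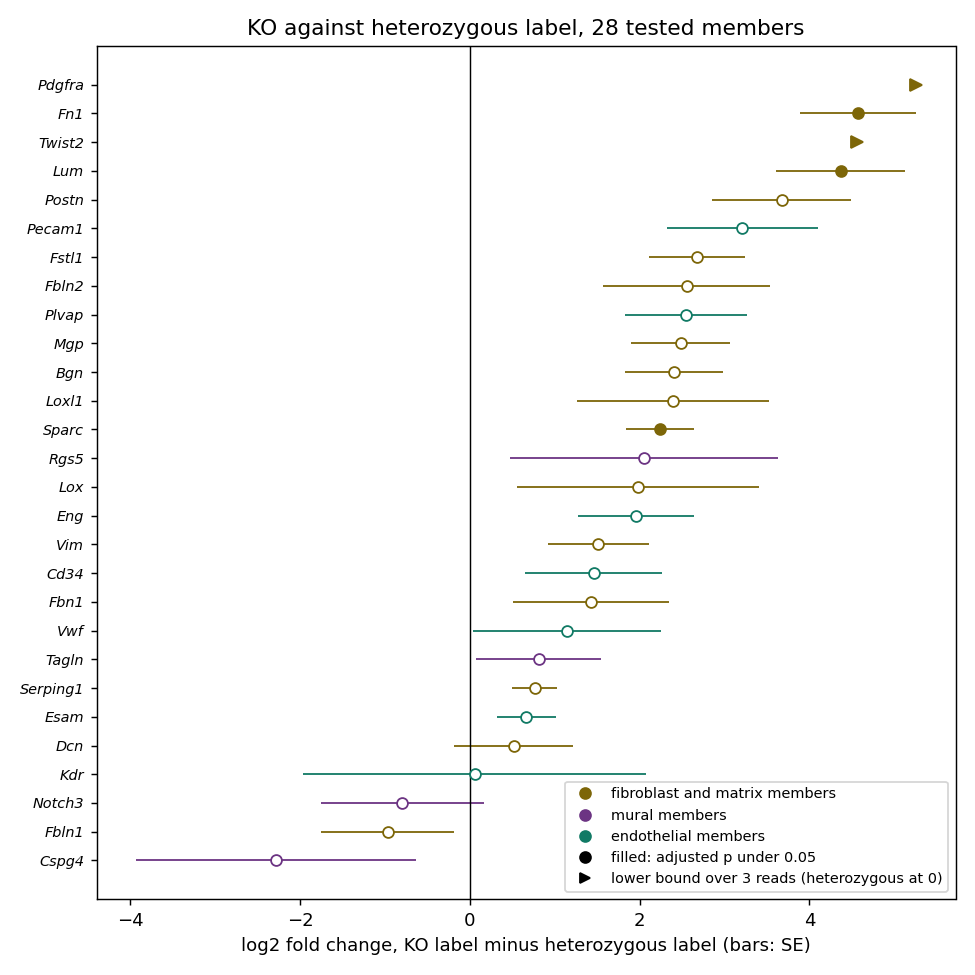
Log2 fold change (KO label minus heterozygous label) of the 28 tested members, with bars of 1 SE, coloured by group. Filled symbols passed at an adjusted p of 0.05, and triangles are lower bounds for genes with 0 heterozygous reads. The 5 filled symbols are all fibroblast and matrix genes, and Cspg4, Notch3 and Fbln1 lie below 0. Pdgfra and Twist2, the triangles, passed the filter on low counts through the KO libraries alone, so they had to differ.

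The sequence just before the gene start is shown for the 4 members whose start region held one of the motifs searched, so that the letters can be read beside the levels. RefSeq (GRCm38.p6) start regions, 250 bases before to 50 after a start, were found for 23 of the 37 members. Missing entries were those of Dcn, Esam, Fn1, Lox, Loxl1, Lum, Mgp, Myh11, Pdgfrb, Pecam1, Plvap, Serping1, Tagln and Vwf. CACGTG, the E-box that the BMAL1 and CLOCK pair binds, was in the region of 1 member, Fbln1 (8.09% of 27025 genes have it). TATAAA, the letters of a TATA box, were in those of Flt1, Postn and Vim (15.7% of genes). The CArG box, bound by serum response factor and able to contain TATAAA, was in none of the 23 (1.81% of genes). Both strands were read. Each line gives the 100 bases before the start, 5′ to 3′ on the gene's strand, with the motif in capitals: Fbln1 chr15:85205849-85205948 plus strand, Postn chr3:54361007-54361106 plus strand, Vim chr2:13574211-13574310 plus strand, Flt1 chr5:147726012-147726111 minus strand.
Fbln1: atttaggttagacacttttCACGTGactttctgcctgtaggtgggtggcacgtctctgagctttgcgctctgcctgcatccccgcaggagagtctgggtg
Postn: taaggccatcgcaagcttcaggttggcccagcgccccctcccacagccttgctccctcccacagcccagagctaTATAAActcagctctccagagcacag
Vim: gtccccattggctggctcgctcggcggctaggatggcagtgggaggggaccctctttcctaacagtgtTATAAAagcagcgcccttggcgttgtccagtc
Flt1: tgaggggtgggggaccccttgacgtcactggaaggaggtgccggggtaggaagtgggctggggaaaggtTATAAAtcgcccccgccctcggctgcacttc
In Fbln1 the motif spans positions -81 to -76 from this start, and the same site lies at -140 to -135 from a second listed start. In Postn, Vim and Flt1 it begins 26, 32 and 31 bases before the start. A match describes these letters and is not a measured binding site.

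Mural genes were low. KO replicate 1 was at least 2-fold above KO replicate 2 for 3 of 4 tested members, against 6.79% of all genes tested. Of 7 mural members 4 could be tested, and 0 passed (0 also at an unadjusted p of 0.05 in edgeR's test, and 0 by DESeq2). Acta2, smooth muscle α-actin and a defining gene of contractile mural cells, had 101 counts in KO replicate 1 and 1, 3 and 2 in the other libraries, or 3.08 against 0.0312, 0.0775 and 0.0605 CPM. Without KO replicate 2 it became testable through KO replicate 1 alone, the only KO library left, so it had to differ there. Myh11, the smooth muscle myosin heavy chain, followed with 65, 7, 7 and 1 counts (1.98 CPM in KO replicate 1, 0.219 in KO replicate 2, 0.181 and 0.0303 in the heterozygous label).

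Rgs5, a regulator of G-protein signalling and a pericyte marker, was at 1.19 CPM in KO replicate 1, 0.250 CPM in KO replicate 2, and 0.336 and 0 CPM in the heterozygous label (log2 fold change 2.05, SE 1.58, edgeR adjusted p = 0.583). Again KO replicate 1 was the high library. Tagln and Cnn1, which encode the actin-binding proteins transgelin and calponin, were also highest there, at 2.83 CPM against 0.955 to 1.33 CPM and at 0.700 CPM against 0 to 0.272 CPM. The exons of Tagln share 108 bases with Pcsk7, a protease gene, and counting without strand cannot separate such reads.

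Notch3 and Cspg4 did not follow the contractile genes. Notch3, the Notch receptor of mural cells, was at 0.335 and 0.687 CPM in the KO label and 1.29 and 0.484 CPM in the heterozygous label. Cspg4, the NG2 proteoglycan of pericytes, was at 0.365 and 0 CPM against 1.63 and 0.182 CPM. Both were highest in heterozygous replicate 1, and their fold changes of -0.80 and -2.29 turned to 0.07 and 0.0054 without that library.

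No endothelial gene passed. KO replicate 1 was at least 2-fold above KO replicate 2 for 4 of 7 tested members, against 6.79% of all genes tested. Of 12 members 7 could be tested, 0 passed in edgeR's test and 3 had an unadjusted p under 0.05, while DESeq2 called 2 (Pecam1 and Plvap). Pecam1, the junction protein CD31, was at 5.54 CPM in KO replicate 1, 1.69 CPM in KO replicate 2, and 0.207 and 0.575 CPM in the heterozygous label. The labels did not overlap (log2 fold change 3.21, SE 0.89, edgeR adjusted p = 0.130, 0.0125 to 0.427 over its alternatives). Plvap, a protein of the diaphragms of fenestrated endothelium, was at 9.62 and 2.50 CPM against 1.16 and 0.908 CPM. It too was separated (log2 fold change 2.54, SE 0.71, adjusted p = 0.133, 0.0128 to 0.501 over its alternatives). Both passed without KO replicate 2 and not without KO replicate 1.

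Receptors of vascular growth factors had few reads, at most 62 counts in a library. Kdr, the main receptor for VEGF-A on endothelium, had 0 and 24 counts in the KO label and 0 and 24 in the heterozygous label, so that each label held 1 library with and 1 without reads (0, 0.749, 0 and 0.726 CPM). Flt1, the other VEGF-A receptor, had 62 and 0 counts in the KO label and 0 and 2 in the heterozygous label. Its only sizeable value was 1.89 CPM, in KO replicate 1. Tie1, an orphan receptor that partners with TIE2, was at 0.913 CPM in KO replicate 1, 0 in KO replicate 2, and 0.181 and 0.182 CPM in the heterozygous label. Tek, which encodes TIE2, the angiopoietin receptor, had 16 counts in all, 11 of them in heterozygous replicate 2.

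Emcn, the sialomucin endomucin of capillaries and veins, had 47 and 0 counts in the KO label and 0 and 7 in the heterozygous label. Cdh5, the endothelial cadherin, had 3 reads in KO replicate 1, 1 in heterozygous replicate 1 and none elsewhere, so the defining junction gene was near 0 in the libraries where Pecam1 and Plvap were read. Cldn5, the claudin of tight endothelial junctions, had 12 and 4 counts against 0 and 0. Vwf, the von Willebrand factor gene, and Cd34, a surface marker of endothelium and some fibroblasts, were at 1.46 and 0.437 CPM and at 2.92 and 1.09 CPM in the KO label. In the heterozygous label they were at 0.697 and 0.151 CPM and at 0.852 and 0.605 CPM.

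Eng and Esam differed from the other endothelial members. Eng, the TGF-β co-receptor endoglin, which fibroblasts and macrophages can also hold, was at 1.95 CPM in KO replicate 1 and 4.68 CPM in KO replicate 2 against 0.826 and 0.878 CPM (edgeR log2 fold change 1.96, SE 0.68, adjusted p = 0.210). It was higher in KO replicate 2, as Sparc and Bgn were. Esam, an adhesion molecule, was at 20.7 and 12.8 CPM against 12.9 and 8.23 CPM, and overlapped between labels. It took 44.3% of the endothelial sum in KO replicate 1 and 76.4% in heterozygous replicate 1.

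The libraries labelled KO differed from each other by group of member. At least a 2-fold difference separated them for 18 of 28 tested members, against 15.6% of all genes tested. With 1 library on each side no test is possible. KO replicate 1 was at least 2-fold higher for 8 of the 28 and KO replicate 2 for 10, where 6.79% and 8.83% of all genes were. Over all 37 members, KO replicate 1 was at least 2-fold higher for 6 of 7 mural and 8 of 12 endothelial members and for 2 of 18 fibroblast and matrix members. KO replicate 2 was at least 2-fold higher for 7 of 18 fibroblast and matrix members, 1 mural member (Notch3) and 2 endothelial members (Kdr and Eng). Of the 37, 9 were too low to test and reached the cut of the filter in at most 1 library, which favours a wide ratio. Among tested members alone, KO replicate 1 was at least 2-fold higher for 3 of 4 mural, 4 of 7 endothelial and 1 of 17 fibroblast and matrix members. Fn1 lay just inside the 2-fold limit, at 1.99, and Dcn and Notch3 just outside it, at 2.02 and 2.05. Of 16 further mural genes, 3 were at least 2-fold higher in KO replicate 1 and 4 in KO replicate 2.

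**Figure D3:**
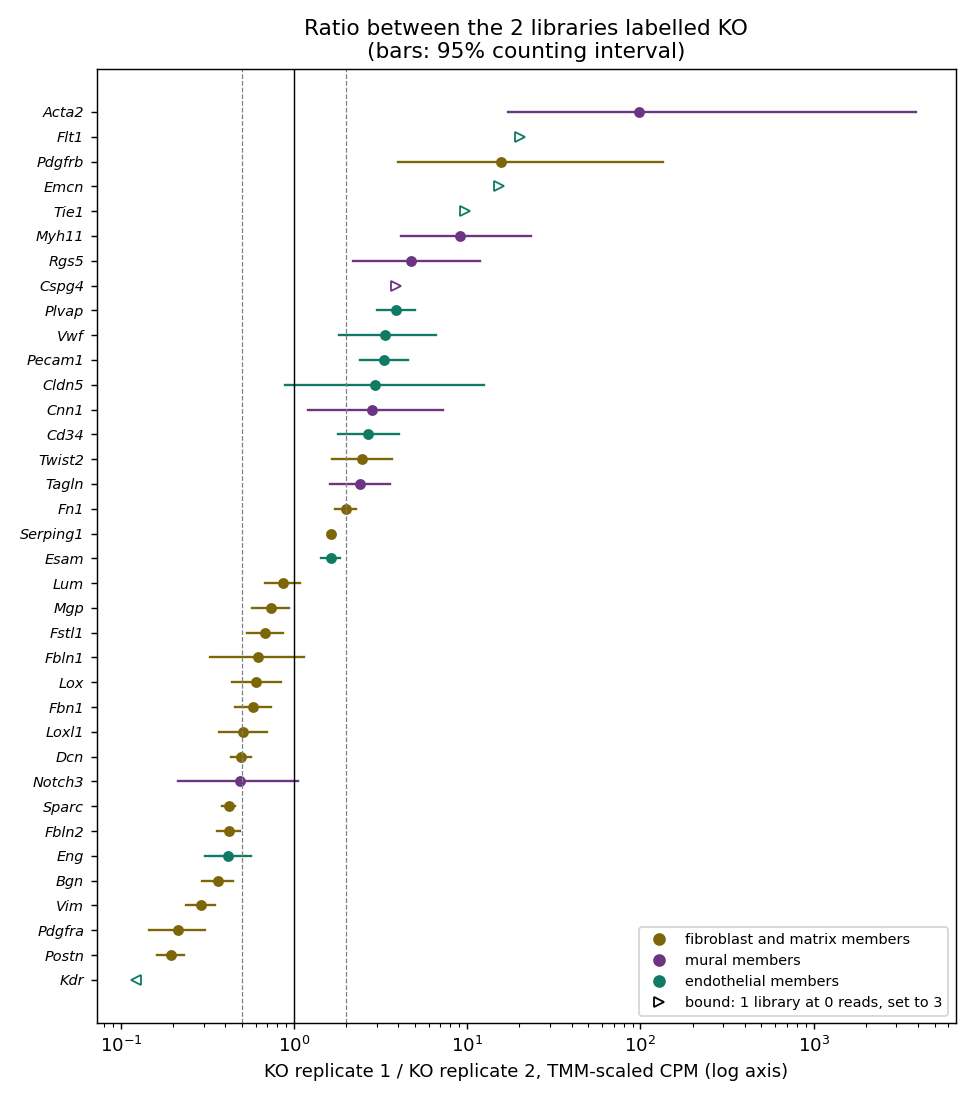
Ratio of KO replicate 1 to KO replicate 2 for the 36 members with more than 3 counts in at least 1 KO library, on a log axis, with 95% counting intervals. Open triangles are bounds where 1 library had 0 reads, and dashed lines mark 2-fold. Mural and endothelial genes from Acta2 to Tagln lie to the right, and Postn, Pdgfra, Vim, Bgn and Sparc to the left.

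The widest ratios toward KO replicate 1 were those of low genes. Acta2 was 98.5-fold higher there (95% counting interval 17.3 to 3928), Pdgfrb 15.6-fold (3.98 to 134), Myh11 9.05-fold (4.15 to 23.4) and Rgs5 4.75-fold (2.19 to 11.8). Flt1 was at least 20.2-fold, Emcn at least 15.3-fold and Tie1 at least 9.75-fold higher. Among genes with more reads, Plvap was 3.85-fold (3.00 to 4.99) and Pecam1 3.29-fold (2.41 to 4.54) higher. All of these except Pdgfrb are mural or endothelial members.

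Toward KO replicate 2 the ratio was 5.16-fold for Postn (95% counting interval 4.31 to 6.20), 4.71-fold for Pdgfra (3.29 to 6.92), 3.47-fold for Vim (2.86 to 4.23), 2.76-fold for Bgn (2.26 to 3.39) and 2.39-fold for Sparc (2.18 to 2.62). Kdr was at least 8.20-fold higher there. Lum had no difference beyond counting error, at 1.17-fold (0.928 to 1.47), and Mgp and Fstl1 were 1.37-fold and 1.48-fold higher. Twist2 went the other way, 2.45-fold higher in KO replicate 1 (1.66 to 3.69).

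The heterozygous libraries were at least 2-fold apart for 14 of 28 tested members, against 10.7% of all genes tested. Of the 28, heterozygous replicate 1 was higher for 9 and replicate 2 for 5, where 6.49% and 4.17% of all genes were. Over the 37 members, both KO libraries were above both heterozygous ones for 15 of 18 fibroblast and matrix members, 1 of 7 mural members (Myh11) and 5 of 12 endothelial members. Myh11, with 7 counts in both KO replicate 2 and heterozygous replicate 1, and Cldn5, with 4 counts in KO replicate 2, were not tested. Of the 28 tested members, 19 had this order: 15 fibroblast and matrix, 0 mural and 4 endothelial. Among all genes tested this order held for 25.3%, and the reverse order, seen for Fbln1, for 23.8%.

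Summed by group, fibroblast and matrix RNA was 251 CPM in KO replicate 1 and 278 CPM in KO replicate 2, against 130 and 83.6 CPM in the heterozygous label. Without Serping1 the sums were 95.1 and 183 CPM against 43.8 and 21.9 CPM, so both KO libraries were higher and KO replicate 2 exceeded replicate 1 by 1.92-fold. Mural RNA summed to 10.5 and 2.62 CPM against 4.47 and 2.36 CPM, with KO replicate 2 inside the range of the heterozygous label. Endothelial RNA summed to 46.8 and 24.1 CPM against 16.9 and 12.9 CPM, and without Esam to 26.1 and 11.4 CPM against 3.98 and 4.63 CPM. All 3 sums exceeded both heterozygous libraries in KO replicate 1, and the fibroblast and endothelial sums did so in KO replicate 2.

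**Figure D4:**
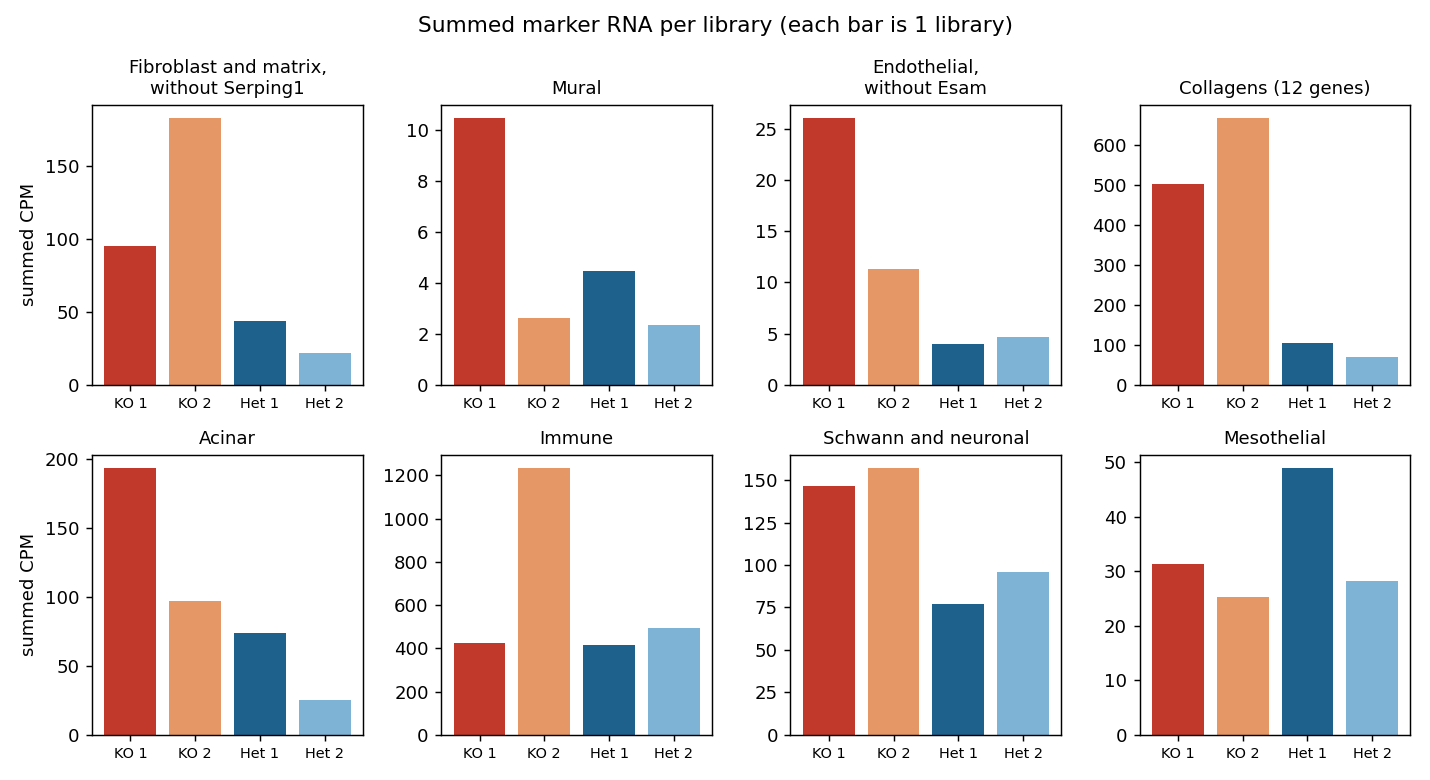
Summed TMM-scaled CPM (vertical axis) per library for the 3 groups of members, without Serping1 and Esam, and for 5 other lists, each bar 1 library and each panel with its own axis from 0. Mural, endothelial and acinar sums are highest in KO replicate 1, and fibroblast, collagen and immune sums in KO replicate 2.

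Markers of other cell types differed between the same libraries. Acinar genes (12 of 14 tested, 0 passed by edgeR, 5 at an unadjusted p under 0.05, 2 by DESeq2) summed highest in KO replicate 1, as the endothelial and mural members did. Prss2, a trypsinogen gene named after its values were seen, had 1784 counts there against 167, 271 and 4. Amy2a5 was at 0 in all libraries. Of 12 immune genes measured, 11 were tested and 0 passed by edgeR (4 at an unadjusted p under 0.05, 3 by DESeq2). Of the 12, 9 were at least 2-fold higher in KO replicate 2 than in KO replicate 1, as Postn and Pdgfra were. Of all genes tested, 8.83% had this order. The T-cell gene Cd3e had 7, 5, 5 and 0 counts, while the macrophage genes C1qa and Csf1r were read in each library. Their part in the levels of the members was not tested.

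Other genes of the same cell types gave few calls. Of 20 further fibroblast genes 14 were tested and 0 passed in edgeR's test (5 at an unadjusted p under 0.05, 3 by DESeq2). Mfap5 (log2 fold change 3.10, adjusted p = 0.0555) and Mfap4 (3.00, adjusted p = 0.0919), both microfibril proteins, had the smallest p. Fap, a protease of activated fibroblasts, had 20 and 17 counts against 0 and 0, and passed the filter on low counts through the KO libraries alone. Tnc, which encodes the matrix protein tenascin-C, had 109 counts in KO replicate 2 and 0, 1 and 0 in the others. Fap and Tnc were named after their values were seen.

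Of 9 further mural genes tested, 1 rose and 1 fell, where 1.20% and 1.34% of all genes tested did. Abcc9, a subunit of the pericyte potassium channel, rose, at 3.44 and 2.87 CPM in the KO label against 0.0516 and 0.182 CPM (edgeR log2 fold change 4.74, SE 0.89, adjusted p = 0.0453). Abcc9 passed the filter on low counts through the KO libraries alone, so it had to differ. Its channel partner Kcnj8, named after its values were seen, had 1 and 23 counts in the KO label and 0 in the heterozygous label. Smtn, the smooth muscle protein smoothelin, fell, at 4.14 and 5.40 CPM against 15.2 and 16.3 CPM (log2 fold change -1.72, SE 0.30, adjusted p = 0.0370). Des, Lmod1 and Higd1b, further mural markers chosen the same way, had at most 3 counts in any library. The 16 further mural genes were split within the KO label, 3 at least 2-fold higher in replicate 1 and 4 in replicate 2. Of all genes tested, 6.79% and 8.83% were.

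Of 10 further endothelial genes tested 0 passed by edgeR (1 at an unadjusted p under 0.05, 0 by DESeq2). Mmrn2 (edgeR log2 fold change 4.48, adjusted p = 0.204) and Egfl7 (1.05, adjusted p = 0.376) had the smallest p. Mmrn2 passed the filter on low counts through the KO libraries alone, so it had to differ. Of the 23 further endothelial genes measured, 9 were at least 2-fold higher in KO replicate 1 and 4 in KO replicate 2. Of all genes tested, 6.79% and 8.83% were. Genes too low to test reached the cut of the filter in at most 1 library, which favours a wide ratio. Reads of Robo4 (23), Selp (25), Sox18 (40) and Clec14a (54) were in KO replicate 1, with none in KO replicate 2 and at most 6 in a heterozygous library. The 4 toward KO replicate 2 were Sox7 (0 counts in KO replicate 1 and 21 in KO replicate 2), Sele (0 and 7), Nos3 (22 and 48) and Icam2 (17 and 48). These 8 genes were named after their values were seen. Erg, an endothelial transcription factor gene, was at 0 in all libraries.

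Of 28 tested ligands and partners of these receptors, 1 rose and 1 fell in edgeR's test, 8 had an unadjusted p under 0.05, and DESeq2 called 5. Over all genes tested, 1.20% rose and 1.34% fell in edgeR's test. Pdgfb, the ligand with which endothelium recruits pericytes, rose, at 20.9 and 16.8 CPM against 5.16 and 5.12 CPM (edgeR log2 fold change 1.87, SE 0.28, adjusted p = 0.0230). Pgf, placental growth factor and a ligand of FLT1, fell, at 10.3 and 8.71 CPM against 29.8 and 29.1 CPM (-1.63, SE 0.22, adjusted p = 0.0180). Vegfa and Angpt1 were picked after their values were seen. Vegfa, which β-cells secrete to maintain islet capillaries, was at 479 and 579 CPM against 739 and 676 CPM and did not pass (-0.42, SE 0.15, adjusted p = 0.219). Angpt1, the angiopoietin that activates TIE2, had 22 and 31 counts against 0 and 0 (at least 9.73-fold higher over the floor). It passed the filter on low counts through the KO libraries alone, so it had to differ.

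Collagen genes had 5 of 12 higher and 0 lower in edgeR's test, while DESeq2 called 9, limma-trend 8 and limma-voom 4. Over all 14649 genes tested, edgeR called 1.20% higher and 1.34% lower. DESeq2 called 619 of them higher and 560 lower, limma-trend 232 and 258, and limma-voom 164 and 219. Col4a1, a basement membrane collagen, was at 322 and 226 CPM against 42.8 and 36.8 CPM (edgeR log2 fold change 2.78, SE 0.21, adjusted p = 0.00807). Col1a1, a fibrillar collagen of fibroblasts picked after its values were seen, was at 16.9 and 70.4 CPM against 7.28 and 2.27 CPM, with KO replicate 2 highest as for Postn, and did not pass (adjusted p = 0.0878).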

How the data were processed

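RNA of 4 libraries (2 labelled Bmal1KO, 2 labelled Bmal1+/-) was made with an RNeasy Plus Micro kit and SMART-Seq v4, per the labels' protocols. STAR, edgeR and mm10 appear in the submitters' processing notes, and neither the notes nor the labels name the counting tool, strand setting or annotation. Deposited by the authors were whole-number counts per gene symbol, used for all main tests, and a scaled signal table (counts times 1 constant per library, whole reads recovered for 100% of values at a tolerance of 0.01), used for 1 alternative.

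Counts were filtered with filterByExpr (minimum count 10, total 15), given TMM factors and tested in R 4.3.3 by edgeR 4.0.16 (glmQLFit, glmQLFTest), group as the only term, two-sided, threshold 0.05, on all 14649 genes that passed. The test was tried on simulated data. Members, gene lists (named in the report and the closing section) and comparisons were chosen with earlier results of these data known. Each measured member is named; values in all libraries are given for members that passed, were 4-fold apart within the KO label or define a cell type. Replicates differed beyond sampling noise (chi-square per degree of freedom 63.9 and 42.9). Positions and exon lengths are from GENCODE M21. Exons of Fbn1 overlap Gm9913 by 2442 bases, and those of Eng overlap Fpgs by 61, so these values are uncertain to that extent. Alternatives were other scalings, filters and thresholds, DESeq2 1.42.0, limma 3.58.1 (voom, and trend on log2 of the scaled values plus 0.5), a replicate block and leaving out each library.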

Additional observations from a re-analysis of the deposited data

How the results depend on the processing

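The member count of 5 higher was kept with RLE, upper quartile or no scaling, with the same 5 genes. It was 10 with no filter, 3 with a mean of at least 5 CPM (8 members tested), 12 by DESeq2, 2 by limma-voom, 9 at an adjusted p of 0.1, and 1 to 8 with a library left out; the fibroblast and matrix count of 5 was 9, 3, 10, 2, 9 and 1 to 7 in the same order. Endothelial calls, 0 in the test reported, were 1 with no filter, 2 by DESeq2 and 0 to 2 with a library left out, and mural calls 0 to 1 with a library left out. No member was called lower under any of these settings. A label left with 1 library is assumed to vary like the other. Over all genes, 176 higher and 196 lower became 430 and 378 with no filter, 619 and 560 by DESeq2, 378 and 350 at 0.1, and 266 higher at 5 CPM; leaving out a library gave 17 to 404 higher and 8 to 422 lower, the fewest without heterozygous replicate 2. The median of the tested members, 2.02, was 1.60 by limma-trend on the scaled values and 1.99 to 2.63 with a library left out. Of the 18 and 14 members 2-fold apart within the KO and heterozygous labels, 4 and 8 were 4-fold apart, and 5 and 4 were 2-fold apart at 5 CPM. The sums without Serping1 (95.1, 182.6, 43.8 and 21.9 CPM) and without Esam (26.1, 3.98 and 4.63 CPM in KO replicate 1 and both heterozygous libraries), chosen after seeing the data, are given with the group sums. Replicate numbers in the titles name samples only: deviations of same-numbered libraries correlated at -0.0189 across genes. With a replicate block, 313 genes were higher and 278 lower, and 7 members were higher, all 5 and also Postn and Serping1; the median was 2.17. With a library left out, fold changes ran from -0.252 to 2.18 for Dcn, -7.98 to 0.00542 for Cspg4, -1.40 to 0.0704 for Notch3 and -6.67 to 6.69 for Kdr, each of which changed sign. The causes of these shifts were not tested. Members under about 1 CPM rest on few reads, which limits what their levels can show.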

Other observations

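RNA of other non-β cells was present in all libraries, and 0 of the 22 genes tested in the 4 lists below passed in edgeR's test (7 had an unadjusted p under 0.05, and DESeq2 called 6). Sox10, Cdh19, Lrrn4, Upk3b and Gcg are named after their values were seen. Schwann and neuronal genes summed to 146 and 157 CPM in the KO label and 77.0 and 96.1 CPM in the heterozygous label. Mbp, the myelin basic protein gene, had the smallest p of that list (log2 fold change 0.75, adjusted p = 0.0845). Sox10, a transcription factor gene of glial cells, had 118 counts in KO replicate 2 and 13, 26 and 2 in KO replicate 1 and the heterozygous libraries, and Cdh19, a Schwann cell cadherin gene, had 209 against 4, 10 and 22. Mesothelial genes summed to 31.3 and 25.2 CPM against 48.9 and 28.2 CPM, and Lrrn4 was read in heterozygous replicate 1 alone, with 49 counts. Upk3b, a uroplakin gene of mesothelium, was also highest there, at 3.31 CPM against 0 to 0.609 CPM.

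Duct genes summed to 881 and 857 CPM against 1098 and 1181 CPM, and Krt7, a keratin gene, had the smallest p of that list (log2 fold change -0.68, adjusted p = 0.0637). Hormone genes of other islet cells summed to 4492 and 9329 CPM against 3889 and 3603 CPM. In KO replicate 2, Ppy was at 4008 CPM and Gcg at 3303 CPM, each the highest of the 4 libraries. Globin genes Hba-a1, Hba-a2 and Hbb-b1 were at 0 in all libraries.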
